A study of Mus musculus with 43 samples.

Results

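Gene expression in the liver of female mice that lack insulin receptor substrate 1 (IRS1) was compared with that of wild type mice under ad libitum (AL) feeding, at 15 months of age. The group labelled KO_AL held 3 libraries with the genotype Irs1-/-, a global deletion present in every tissue, and the group labelled WT_AL held 2 wild type libraries. In 2 further liver groups, WT_DR and KO_DR, with 3 libraries each, the mice had eaten 30% less for 12 months (dietary restriction, DR). These are 4 of the 16 groups of the series, which also covers skeletal muscle, brain and white adipose tissue (WAT) in 43 libraries. Poly-A selected RNA was sequenced on an Ion Proton instrument. The authors deposited 1 value per gene and group in FPKM, with a 95% confidence interval. FPKM scales fragments to the transcript's length and to library size, here after the authors' geometric normalisation across libraries. Because the libraries of a group are pooled in that value, no spread between mice was computed, the depth per library is unknown, and every error given here derives from the deposited interval. The median standard deviation (SD) was 32.0% of the FPKM in KO_AL and 44.2% in WT_AL.

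The table has 42349 entries, each a gene or a set of overlapping genes joined under 1 value. An entry was a member of the comparison when its status was OK in both groups and its FPKM reached 1 in at least one of them, which 14000 entries did. The lowest FPKM inside this limit was 1.00 and the highest outside it 0.999. Of the members, 13614 were above 0 in both groups and were tested, and 611 of the tested entries join several genes. The other 386 were listed at 0 in one group and are described separately. A difference is the log2 ratio of the KO_AL to the WT_AL FPKM, tested with a two-sided Wald test and Benjamini-Hochberg adjustment over all tested entries, and up-regulated or down-regulated refers to a false discovery rate (FDR) of 10% in that test. A smaller standard error (SE), with each group's SD divided by the square root of how many libraries it held, is given as an alternative, because the deposited interval does not say whether it describes the group value or the spread of single libraries. With it, 135 entries were higher (0.992% of those tested) and 75 lower (0.551%).

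IRS1 carries the signal of the insulin and insulin-like growth factor 1 (IGF1) receptors to the kinases PI3K and AKT. In hepatocytes AKT keeps the transcription factor FOXO1 out of the nucleus, and insulin thereby represses genes of glucose output and the IGF binding protein Igfbp1 while it favours lipid synthesis. IRS2 is the other main substrate of these receptors in liver and can carry much of the same signal. Irs1 itself, on the minus strand at chr1:82233101-82291416 (GRCm38, as are all coordinates here), was not lower in the group that the label names as its knockout. Its FPKM was 4.70 in WT_AL and 5.95 in the group labelled KO_AL, with 95% intervals of 1.96 to 7.45 and 3.31 to 8.59 that overlap (log2 difference 0.34, SE 0.53). Whether the deletion leaves a transcript that is counted was not tested, nor was the labelling. Every direction below is therefore that of the labelled groups. The hepatocyte marker list includes Alb, Apoa1 and Ttr. It summed to 33345 FPKM in WT_AL, the lowest group, 75337 in KO_AL, 91936 in WT_DR and 88314 in KO_DR. Much of the sum is Alb and Apoa1, at 17208 and 10017 FPKM in WT_AL, whose intervals reach 0 in every liver group. Their log2 differences between KO_AL and WT_AL, 0.99 (SE 1.92) and 1.58 (SE 1.30), did not pass the test.

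Of the 13614 tested entries, 28 were up-regulated in the group labelled KO_AL (0.206%) and 15 were down-regulated (0.11%). At an unadjusted p under 0.05 there were 177 higher (1.3%) and 100 lower (0.735%), together 2.03% of the entries. The whole distribution was shifted, with a median log2 difference of 0.16 and 61.4% of entries higher in KO_AL, so a difference near 0.16 is the average of all entries and not a change relative to them. Few of the up-regulated or down-regulated entries code for protein: 2 of the 28 and 4 of the 15, out of 10036 protein-coding entries of a single gene. The others were short noncoding RNAs, pseudogenes, 2 immunoglobulin V genes and 9 joined entries. With the smaller SE 66 protein-coding genes were higher and 35 lower.

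**Figure D1:**
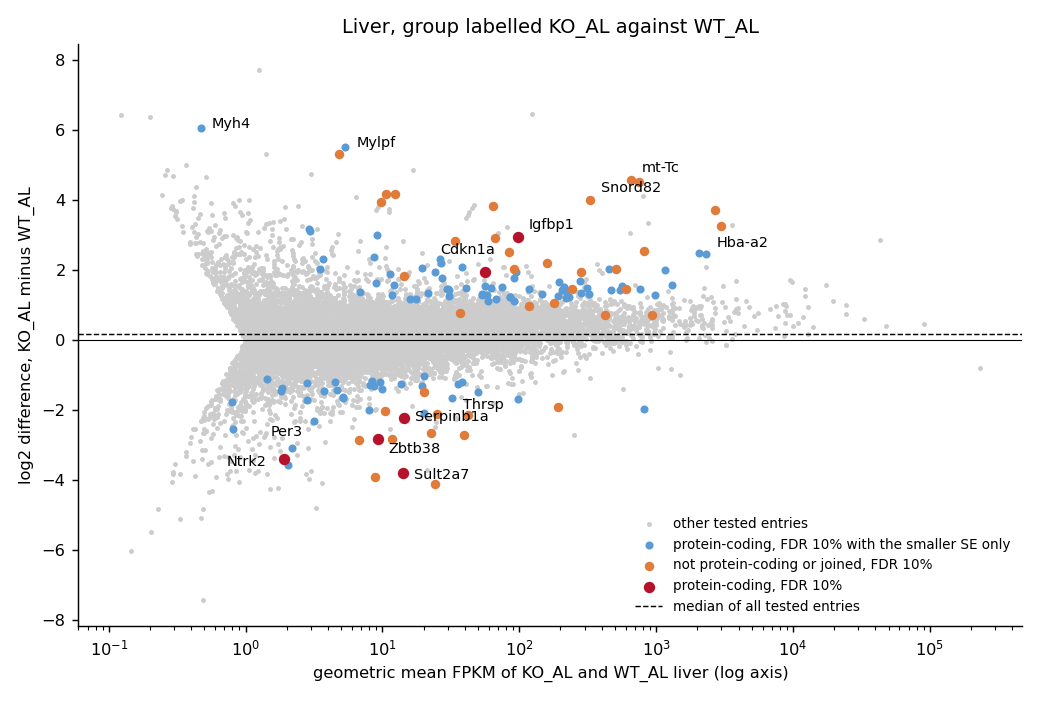
Each point is 1 of the 13614 tested liver entries, with the geometric mean FPKM of KO_AL and WT_AL on a log axis and the log2 difference KO_AL minus WT_AL on the vertical axis, the dashed line marking the median of all entries (0.16). Of the protein-coding genes at an FDR of 10% (red), Igfbp1 lies at a log2 difference of 2.95 and the 4 that were down-regulated lie from -2.22 to -3.81.

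Igfbp1, whose product binds IGF1 and IGF2 in blood and whose transcription in liver insulin represses, was the protein-coding gene with the smallest p value. The 250 bases before its start (chr11:7197537-7197786, plus strand, GRCm38.p6, RefSeq) are shown because they hold the letters CAAAACA, the core of the insulin response element, in capitals from base -108 to base -102:
Igfbp1: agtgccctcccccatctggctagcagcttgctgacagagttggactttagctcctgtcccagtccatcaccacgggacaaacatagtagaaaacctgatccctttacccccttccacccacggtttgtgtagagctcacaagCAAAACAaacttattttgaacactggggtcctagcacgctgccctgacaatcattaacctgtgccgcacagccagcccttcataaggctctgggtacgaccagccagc
These letters, or TGTTTTG on the other strand, occur in 5.56% of 32851 promoter windows of this length, and a match describes the sequence only. Among other promoters looked up, those of Thrsp, Irs1, Irs2, G6pc and Dbp held a match. Those of Cdkn1a, Bcl6, Gadd45b, Ntrk2, Zbtb38, Per3 and Tef held none. Thrsp was lower in KO_AL, whereas Cdkn1a, Bcl6 and Gadd45b were higher, all 4 past the test with the smaller SE only. Ntrk2, Zbtb38 and Per3, also without a match, were lower. Any relation of the letters to the differences was not tested. The FPKM of Igfbp1, at chr11:7197782-7202546, was 34.9 (15.0 to 54.8) in WT_AL and 270.1 (173 to 368) in KO_AL. In the restricted groups it was 82.5 (34.9 to 130.1) in WT_DR and 46.5 (24.7 to 68.2) in KO_DR. KO_AL stood above all other groups, and its interval overlapped none of theirs. Under AL feeding the gene was up-regulated 7.75-fold (log2 difference 2.95, SE 0.49, adjusted p 9.66e-07). Under DR the difference was -0.83 (SE 0.54) and did not pass the test, and the difference between the diets was -3.78 (SE 0.72, adjusted p 2.90e-04).

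Igfbp1 was 1 of 20 tested members of a list of insulin-repressed and FOXO-linked genes, of which 14 were higher in KO_AL, with a median of 0.37 against 0.16 for all entries. The genes of glucose output on it did not pass the test: the log2 difference was 0.44 (SE 0.91) for Pck1, which starts gluconeogenesis, and -0.07 (SE 0.59) for G6pc, which releases glucose from the cell. Irs2, which FOXO1 induces, had an FPKM of 11 in WT_AL and 16.8 in KO_AL (log2 difference 0.61, SE 0.46). On a list of growth arrest and p53-linked genes, the stress sensor Gadd45b was at 3.83 and 19.8 (log2 difference 2.37, SE 0.81). Its relative Gadd45a, on both lists, had a difference of -1.66 (SE 0.85) in the other direction. Of the 2, only Gadd45b passed with the smaller SE.

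Across 42 tested genes of insulin and IGF receptor signalling, 22 were higher and the median difference was 0.03, below that of all entries. None passed an unadjusted p under 0.05, as the Insr value of -0.36 (SE 0.52), for the insulin receptor, and the Foxo1 value of 0.24 (SE 0.57) illustrate. In the growth hormone (GH) and IGF axis, 11 of 18 genes were higher with a median of 0.45. Besides Igfbp1 they include Igfbp2, another secreted IGF binding protein, at 462 FPKM in WT_AL and 1258 in KO_AL (log2 difference 1.44, SE 0.58), and Socs3, a feedback inhibitor of cytokine receptors, at 7.54 and 18.2 (log2 difference 1.27, SE 0.57). Both passed with the smaller SE alone. Igf1, the hormone that GH induces in liver, had wide intervals of 0 to 462 in WT_AL and 89.0 to 835 in KO_AL around 229 and 462, so a change of its size was not detectable.

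The 4 down-regulated protein-coding genes belong to different families. With a t distribution in place of the normal one, none of them and not Igfbp1 passed the Wald test (adjusted p 1.00). Sult2a7, at chr7:14465159-14492926, a sulfotransferase of the family that acts on steroids and bile acids, was at 53.3 FPKM (13.3 to 93.2) in WT_AL and 3.81 (1.56 to 6.05) in KO_AL, 14.0-fold lower (log2 difference -3.81, SE 0.69, adjusted p 1.95e-05). In the same direction it was at 25.1 in WT_DR and 6.61 in KO_DR (log2 difference -1.93, SE 0.62), which did not pass the test. Sult2a genes are close copies of each other, so the division of reads among them is uncertain, and Sult2a3 was also lower, at 84.0 and 30.0 (log2 difference -1.49, SE 0.58), past the test with the smaller SE only. Ntrk2, at chr13:58806596-59133970 and under 1 FPKM in KO_AL, encodes the receptor TrkB for brain-derived neurotrophic factor, and it fell from 6.19 FPKM (2.63 to 9.75) to 0.587 (0.201 to 0.972), a log2 difference of -3.40 (SE 0.63). In WT_DR it was at 3.36 and in KO_DR at 1.24. WT_AL and KO_AL did not overlap in either Sult2a7 or Ntrk2.

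Serpinb1a, an inhibitor of neutrophil elastase, was at 31.0 FPKM (8.55 to 53.5) in WT_AL and 6.67 (5.95 to 7.38) in KO_AL (log2 difference -2.22, SE 0.53). Zbtb38, a zinc finger regulator that binds methylated DNA, was at 24.5 (4.79 to 44.2) and 3.48 (1.30 to 5.67), with a log2 difference of -2.81 (SE 0.74). For these genes WT_AL was the group apart: WT_DR and KO_DR were at 8.34 and 6.72 for Serpinb1a and at 2.16 and 3.04 for Zbtb38, close to KO_AL. Adjusted over protein-coding entries only, Zbtb38 did not pass and the other 3 did.

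**Figure D2:**
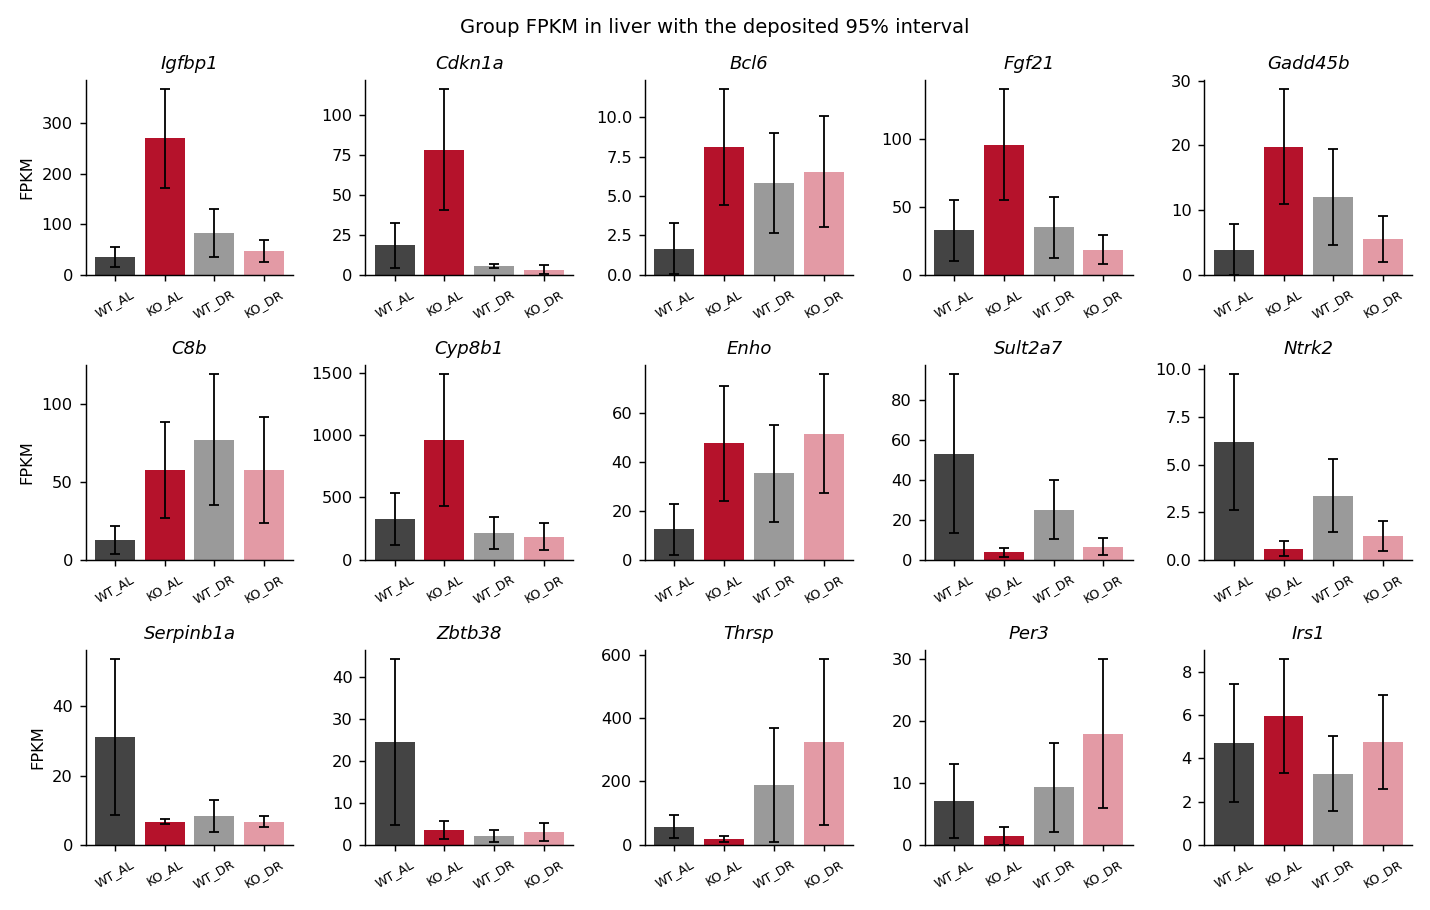
Bars give the FPKM of 15 genes in the 4 liver groups and lines the deposited 95% interval, on linear axes that start at 0. KO_AL stands above the other groups for Igfbp1 (270.1 FPKM), Cdkn1a (78.3) and Fgf21 (96.1), while WT_AL stands above the other groups for Serpinb1a (31.0) and Zbtb38 (24.5). Of these, Cdkn1a and Fgf21 passed the test between KO_AL and WT_AL with the smaller SE only.

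Short noncoding RNAs made up most of the up-regulated entries. All 12 tested mitochondrial tRNA genes were higher in KO_AL, with a median log2 difference of 2.48, and 6 of them were up-regulated. Of these, the tRNAs for histidine (mt-Th), threonine (mt-Tt) and phenylalanine (mt-Tf) had the smallest SEs, and with a t distribution they still passed the test. Their deposited intervals are very narrow beside the median SD of 44.2% of the FPKM in WT_AL. Whether such intervals hold the spread between mice is unknown. mt-Th was at 146 FPKM (139 to 152) in WT_AL and 401 (395 to 407) in KO_AL, mt-Tt at 145 (138 to 151) and 552 (543 to 560.4), and mt-Tf at 254 (243 to 265) and 1031 (1003 to 1059.8). The larger ratios belong to the tRNAs for cysteine (mt-Tc, 134 and 3211) and arginine (mt-Tr, 155 and 3564), where the KO_AL intervals of 0 to 6513 and 0 to 7527 reach 0. Under DR mt-Th was lower in KO_DR (125) than in WT_DR (146), so the genotype difference changed sign with diet. The 6 tested protein-coding genes of the mitochondrial genome were also higher, with a median of 0.94, and 0 of them passed an unadjusted p under 0.05 (mt-Nd5, a complex I subunit, 1.22, SE 0.70).

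Of 29 tested small nucleolar and Cajal body RNAs, 4 were up-regulated and 0 down-regulated. Box C/D members, which guide methylation of ribosomal RNA, are encoded in introns of ribosomal protein and nucleolar protein genes. Snord82 and Snord35a are printed here with box C (TGATG) and box D (CTGA) in capitals, the short motifs that bind the core proteins of the particle:
Snord82: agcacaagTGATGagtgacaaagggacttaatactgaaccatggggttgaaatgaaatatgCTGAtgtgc
Snord35a: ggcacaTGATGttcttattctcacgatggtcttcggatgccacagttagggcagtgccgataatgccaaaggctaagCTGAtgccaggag
They lie at chr1:86356261-86356330 and chr7:45126346-45126435, both on the minus strand. Snord82 was at 81.4 FPKM (47.1 to 116) in WT_AL and 1312 (1172 to 1453) in KO_AL, a log2 difference of 4.01 (SE 0.31). Its host entry, which contains the nucleolin gene Ncl, was at 57.2 and 36.6 FPKM (log2 difference -0.64, SE 0.81). Snord35a was at 34.9 and 201 (log2 difference 2.52, SE 0.54), and its host entry with the ribosomal protein gene Rpl13a was at 167 and 525 (log2 difference 1.65, SE 0.47). Under DR the difference of Snord82 was -0.18 (SE 0.30) and that of Snord35a -1.03 (SE 0.87).

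Other short classes held up-regulated entries too. Of 27 tested small nuclear RNA entries 4 were up-regulated, of 17 ribosomal RNA entries 2, and of 9 microRNA precursors 3, with 0 down-regulated in each class. The ribosomal RNA entries are the 5S genes n-R5s193 (17.0 FPKM in WT_AL, 240.4 in KO_AL, log2 difference 3.82) and n-R5s194 (12.6 and 89.7, 2.83). Pseudogenes were an exception, with 1 of 1814 up-regulated and 6 down-regulated although their median difference of 0.44 was above that of all entries. Among those that fell is Mup-ps5, a pseudogene of the major urinary proteins, at 88.6 and 20.2 FPKM (log2 difference -2.13, SE 0.12). The median exon length was 69 bases for the mitochondrial tRNAs and 4307.5 for protein-coding entries. The libraries were selected for poly-A tails, the authors removed reads under a minimum length, and FPKM divides by length. The part of these properties in the differences was not tested.

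Of the 386 members listed at 0 in one group, 320 were at 0 in WT_AL and 66 in KO_AL. The lower bound of the other group was above 0 for 145 and 20 of them. Among these only 5 are protein-coding, all at 0 in WT_AL: Myl1 (3.44 FPKM in KO_AL) and Pvalb (4.28), both of fast muscle fibres, Ngp (1.49), Alox5 (1.75) and Pglyrp1 (2.36), which neutrophils express. WT_AL held 2 libraries against 3 in KO_AL, and the part of this in the counts was not tested.

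Secreted plasma proteins of the hepatocyte were higher as a group in KO_AL. Of 31 tested acute phase genes, 30 were higher, with a median log2 difference of 0.88. The 10 hepatocyte markers were all higher too, with a median of 0.83. No acute phase gene was up-regulated at an FDR of 10%, 5 were higher and 0 lower at an unadjusted p under 0.05, and 4 passed with the smaller SE. Orm2, an alpha-1 acid glycoprotein, was at 36.9 FPKM in WT_AL and 103 in KO_AL (log2 difference 1.48, SE 0.55). Apcs, serum amyloid P, was at 93.1 and 232 (1.32, SE 0.54), and the iron scavenger Lcn2 at 44.2 and 126 (1.52, SE 0.63). Of 37 complement and coagulation genes 34 were higher, with a median of 0.57, and 0 passed an FDR of 10%. C8b, a subunit of the membrane attack complex, was at 12.5 (3.41 to 21.6) in WT_AL and 57.8 (26.9 to 88.6) in KO_AL, a log2 difference of 2.21 (SE 0.65), and coagulation factor F10 was at 329 and 888 (1.43, SE 0.65). Masp1, which starts the lectin pathway, was 1 of the 3 that were not higher, at 9.13 and 4.80 (-0.93, SE 0.45). Under DR the medians of both lists were 0.02 and -0.13, and C8b was at 77.2 in WT_DR and 57.9 in KO_DR, so that WT_AL was the low group of the 4.

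Among 22 tested hepatokines and hormone carriers 19 were higher, with a median of 0.57. Fgf21, the fasting hormone of liver, was at 32.8 FPKM (10.3 to 55.2) in WT_AL and 96.1 (54.9 to 137) in KO_AL (log2 difference 1.55, SE 0.58). Enho, which encodes adropin, was at 12.4 and 47.6 (1.94, SE 0.70). Both passed with the smaller SE and not with the larger, and the 95% intervals of WT_AL and KO_AL did not overlap for Enho. Leap2, whose product blocks the ghrelin receptor, was chosen after its values were seen, and was at 144 and 332 (1.20, SE 0.53). Fgf21 was below its WT_AL level in KO_DR (18.5), whereas Enho stayed near its KO_AL level in WT_DR (35.4) and KO_DR (51.6).

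Every one of the 59 tested cytosolic ribosomal protein genes was higher in KO_AL, with a median of 0.91, although 0 passed the FDR of 10%, 10 had an unadjusted p under 0.05 and 8 passed with the smaller SE. Rpl37a had the smallest p of the list and was at 48.7 FPKM in WT_AL and 186 in KO_AL (log2 difference 1.94, SE 0.60), and at 83.2 and 311 in WT_DR and KO_DR (1.90, SE 0.67). Rps16 was at 125 FPKM in WT_AL and 357 in KO_AL (log2 difference 1.52, SE 0.54), Rps15 at 286 and 772 (1.43, SE 0.55) and Fau at 135 and 353 (1.39, SE 0.54). WT_DR and KO_DR were both above KO_AL for 37 of the 59 genes, for example 466 and 508 for Rps16, and the median of the list under DR was 0.14. Ribosomal protein genes have many near-identical pseudogenes, so the division of reads is uncertain. Translation factors (46 of 52 higher, median 0.53) and proteasome subunits (31 of 35, median 0.81) had 1 gene each at an unadjusted p under 0.05, Eif3k (1.30, SE 0.65) of the initiation factor 3 complex and Psmb2 (1.05, SE 0.53) of the catalytic core. Nuclear genes of the respiratory chain and ATP synthase were higher in 68 of 72 cases, with a median of 0.64, and 0 passed an FDR of 10%. Ndufs6, a complex I subunit, was at 111 and 347 (1.65, SE 0.56). Mitochondrial ribosomal proteins had a median of 0.33 and 0 genes at an unadjusted p under 0.05.

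**Figure D3:**
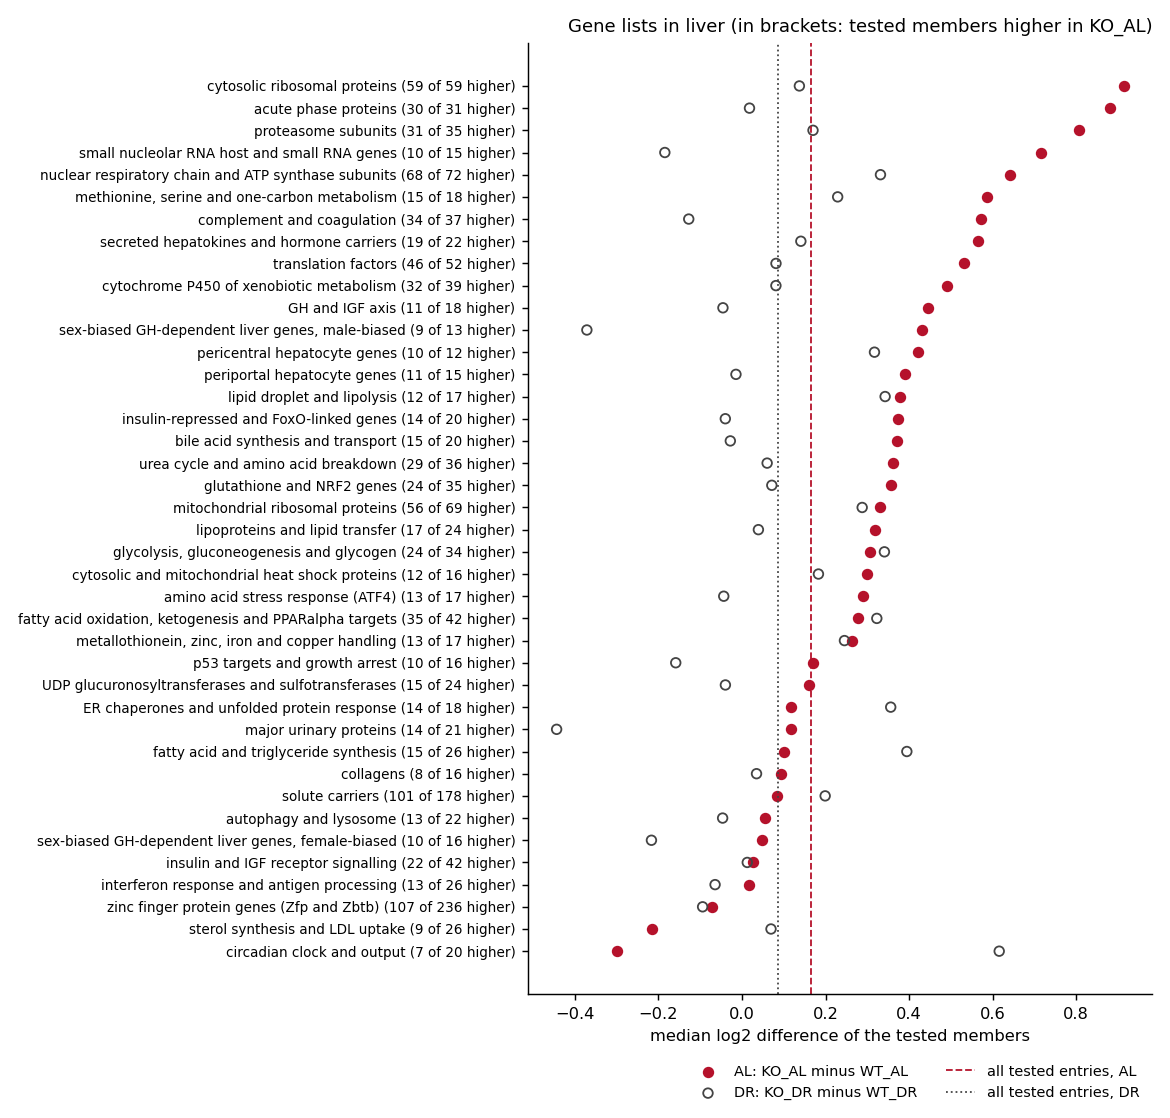
Filled points give the median log2 difference KO_AL minus WT_AL of the tested members of each functional gene list with at least 10 tested members, and open points that of KO_DR minus WT_DR, with lines at the medians of all tested entries (0.16 under AL and 0.09 under DR). Cytosolic ribosomal proteins (0.91) and acute phase proteins (0.88) lie highest under AL, and circadian genes lie lowest (-0.30), where their median under DR is 0.62.

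In xenobiotic and bile acid metabolism, 32 of 39 tested cytochrome P450 genes were higher, with a median of 0.49, and 4 passed with the smaller SE. Cyp3a11, the main mouse CYP3A enzyme, was at 155 FPKM in WT_AL and 501 in KO_AL (log2 difference 1.69, SE 0.66), below both WT_DR (947) and KO_DR (827). Cyp2c44, an epoxygenase of arachidonic acid, was also lowest in WT_AL, at 72.8, 210.4, 302 and 195 in WT_AL, KO_AL, WT_DR and KO_DR. Cyp8b1, the sterol 12-alpha hydroxylase that sets the share of cholic acid in bile, differed from these. It was at 329 (122 to 537) in WT_AL and 960.0 (432 to 1488) in KO_AL, and lower in WT_DR (216) and KO_DR (184). Its log2 difference of 1.54 (SE 0.60) passed with the smaller SE. Cyp7a1, the rate-limiting enzyme of bile acid synthesis, had intervals that reach 0 or nearly so, around 27.0 and 21.7, and gave no detectable difference. Sult3a1, a female-biased sulfotransferase, was at 9.54 and 39.4 (2.05, SE 0.68).

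Of 42 genes of fatty acid oxidation, ketogenesis and the PPARalpha response, 35 were higher, with a median of 0.28. The ω-hydroxylases Cyp4a10, Cyp4a31 and Cyp4a32 carried the small p values, with Cyp4a32 at 49.2 FPKM in WT_AL and 169 in KO_AL (log2 difference 1.78, SE 0.55). Cpt1a, which imports fatty acids into mitochondria, had a difference of 0.10, under the median of all entries and negative once centred on it. Cd36, a fatty acid transporter, went the other way, at 57.8 and 25.1 (-1.21, SE 0.50). Of 18 genes of methionine, serine and one-carbon metabolism 15 were higher, with a median of 0.59. Nnmt, which consumes S-adenosylmethionine, was at 176 and 451. Asl, the urea cycle enzyme that forms arginine, was at 185 and 523 (1.5, SE 0.67). Mt1, a metallothionein, was at 625 and 1531 under AL (1.29, SE 0.56) and 347 and 1103 under DR (1.67, SE 0.56). These 3 genes passed with the smaller SE only.

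Lipid synthesis and sterol genes lay below the median of all entries. In fatty acid and triglyceride synthesis 15 of 26 genes were higher, with a median of 0.10 under AL and 0.39 under DR. Thrsp, a nuclear regulator of lipogenesis that insulin and thyroid hormone induce, was at 57.8 FPKM (20.6 to 95) in WT_AL and 18.3 (9.19 to 27.3) in KO_AL, and at 189 and 324 in WT_DR and KO_DR. KO_AL was the lowest group, with a log2 difference of -1.66 (SE 0.59) that passed with the smaller SE. The elongase Elovl6 was at 7.62 and 3.60 (-1.08, SE 0.53), at an unadjusted p of 0.0416, and fatty acid synthase Fasn at 135 and 72.5 with intervals too wide to tell them apart (-0.90, SE 1.01). In sterol synthesis and LDL uptake only 9 of 26 genes were higher, with a median of -0.22. Insig1, which holds the sterol regulator SREBP2 in the endoplasmic reticulum, was at 37.5 and 19.9 (-0.91, SE 0.44).

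Among the functional lists with at least 10 tested genes, circadian genes had the lowest median, -0.30 over 20 tested genes with 7 higher, and the highest under DR, 0.62. Per3 encodes a clock repressor whose transcription the D-box factors DBP and TEF drive. Its promoter (chr4:151044666-151044915, minus strand, GRCm38.p6, RefSeq) is shown because it holds the D-box letters TTATGTAA in 2 places, in capitals, at bases -205 to -198 and -158 to -151:
Per3: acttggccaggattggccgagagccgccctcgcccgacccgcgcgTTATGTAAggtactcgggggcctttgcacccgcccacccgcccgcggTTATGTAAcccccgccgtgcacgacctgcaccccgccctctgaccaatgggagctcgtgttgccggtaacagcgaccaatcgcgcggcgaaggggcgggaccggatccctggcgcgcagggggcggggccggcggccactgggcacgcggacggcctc
TTATGTAA or TTACATAA occurs in 0.819% of the 32851 promoter windows. Per3 was at 7.02 FPKM (1.03 to 13) in WT_AL and 1.40 (0 to 2.82) in KO_AL, and at 9.24 and 17.9 in WT_DR and KO_DR. The log2 difference of -2.33 (SE 0.96) passed with the smaller SE only. Dbp and Tef, chosen after their values were seen, had differences of -2.25 (SE 1.69) and -0.99 (SE 0.75) under AL and 0.84 (SE 1.17) and 0.87 (SE 0.77) under DR. Nfil3, a repressor at the same sites, was at 31.7 in WT_AL and 56.9 in KO_AL (0.84, SE 0.49), and at 26.2 and 10.7 under DR. None of these 3 passed the test.

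Cdkn1a, the cyclin-dependent kinase inhibitor p21, was at 18.3 FPKM (4.07 to 32.5) in WT_AL and 78.3 (40.4 to 116) in KO_AL, and at 5.54 and 3.02 in WT_DR and KO_DR. The log2 difference was 2.10 (SE 0.66) under AL and -0.87 (SE 0.69) under DR. Over 16 tested p53 targets and growth arrest genes, however, the median was 0.17, near that of all entries. Bcl6, a transcriptional repressor, was at 1.64 (0.0231 to 3.27) and 8.11 (4.44 to 11.8), and the restricted groups were near KO_AL at 5.80 and 6.53. Egr1, an immediate early factor chosen after its values were seen, was at 6.98 and 20.8, against 14.0 and 4.92 under DR. Zinc finger genes (236 tested, 107 higher, median -0.07) lay below all entries; besides Zbtb38, Zbtb18 was lower, at 41.6 and 9.84 (-2.08, SE 0.89). Sik1, a kinase that cAMP induces, was chosen after its values were seen, and was at 9.08 and 2.90 (-1.65, SE 0.53). Between KO_AL and WT_AL, Cdkn1a, Bcl6, Egr1, Zbtb18 and Sik1 passed with the smaller SE only.

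Further genes that were lower with the smaller SE, also chosen after their values were seen, include Osgin1, an oxidative stress response gene, at 176 FPKM in WT_AL and 54.3 in KO_AL (log2 difference -1.70, SE 0.55), the water channel Aqp8 at 55.4 and 23.1, and the nonsense-mediated decay helicase Upf1 at 14.5 and 6.35. A1bg, a plasma protein with higher expression in female liver, was lower under both diets, at 1607 and 407 under AL (-1.98, SE 0.83) and 900.4 and 121 under DR (-2.90, SE 0.67), and fell under DR in the test at an FDR of 10%. Among genes that were higher, the vasopressin receptor Avpr1a was at 13.6 and 34.2 (1.33, SE 0.52) and the peroxiredoxin Prdx4 at 71.6 and 196 (1.46, SE 0.51).

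Markers of other tissues and of blood cells differed between the groups beside these results. The 8 skeletal muscle markers summed to 2.53 FPKM in WT_AL and 99.0 in KO_AL, with 12.4 in WT_DR and 32.7 in KO_DR. Mylpf, a fast myosin light chain, was at 0.795 (0 to 3.26) and 36.0 (20.0 to 52.0), and 3 of the 5 tested markers passed with the smaller SE. Red blood cell markers, mainly the globins, summed to 2681 and 13570 under AL and 3469 and 12048 under DR. Hbb-bt, for example, was at 224 and 921 (2.04, SE 0.57), and under DR the difference was 1.69 (SE 0.62). Neutrophil markers summed to 21.4 in WT_AL and 91.3 in KO_AL, with S100a9, a calcium-binding alarmin, at 11.8 and 58.8. Kupffer cell and macrophage markers differed little (594 and 662). B cell and plasma cell markers had a lower sum in KO_AL (339 and 191), much of it from Igkc, described below. Of their 8 tested genes 3 were higher, and 0 had an unadjusted p under 0.05 in either direction. In whole tissue, more cells of a type in the sample and more RNA per cell cannot be told apart. The source of the muscle and blood cell RNA was not tested. The part of these cells in other results was not tested.

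Immunoglobulin V genes varied gene by gene. Of 56 tested, 2 were down-regulated, 0 up-regulated, and the median was -0.22. Ighv1-53 was at 33.9 FPKM (12.8 to 55.0) in WT_AL and 2.27 (0 to 4.69) in KO_AL, and Igkv3-2 at 101 (51.2 to 152) and 15.5 (1.68 to 29.3). The light chain constant gene Igkc was at 245 and 122 (-1.01, SE 0.68), which did not pass the test. V genes resemble each other closely, so the division of reads between them is uncertain.

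**Figure D4:**
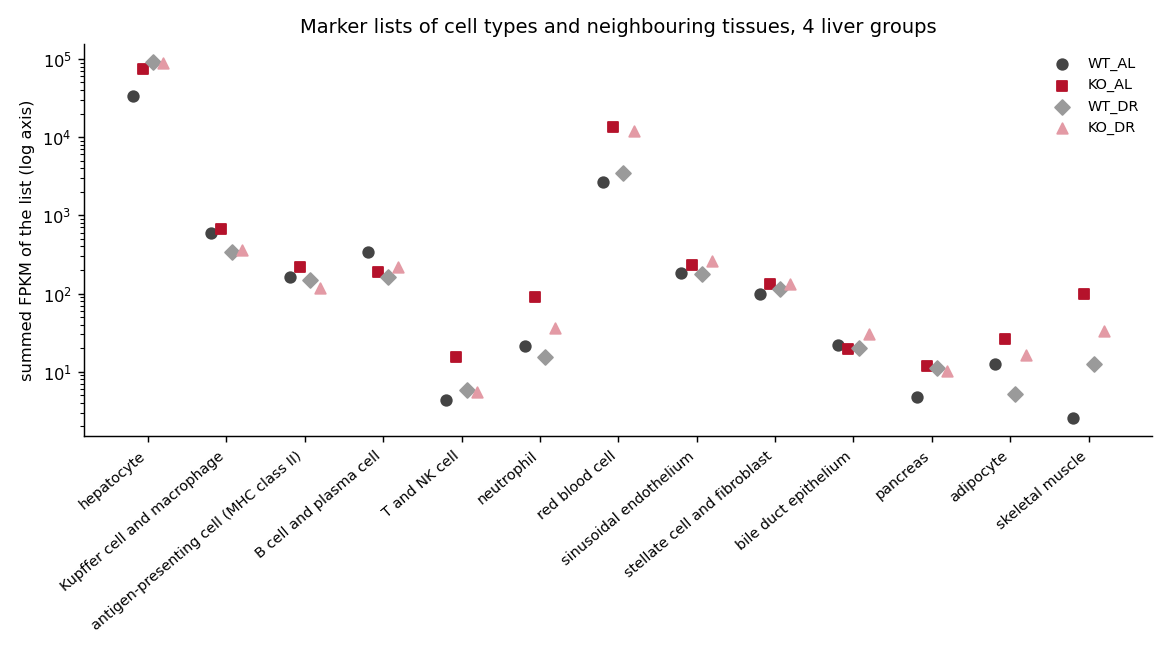
Each point is the summed FPKM of a list of marker genes in 1 of the 4 liver groups, on a log axis. Skeletal muscle markers range from 2.53 in WT_AL to 99.0 in KO_AL, red blood cell markers are higher in KO_AL (13570) and KO_DR (12048) than in WT_AL (2681) and WT_DR (3469), and Kupffer cell markers lie between 336 and 662.

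The difference between KO_AL and WT_AL depended on the level and the length of the gene. Over protein-coding entries, the median log2 difference was -0.01 for a geometric mean FPKM under 3 (49.4% of 2363 genes higher) and 0.55 for 300 or more (90.5% of 327). By summed exon length it was 0.46 under 1000 bases (74.1% of 274 genes higher) and -0.04 at 8000 bases or more (46.8% of 1700). Between KO_DR and WT_DR the medians ran from 0.02 to 0.21 over the level classes and from 0.25 to 0.02 over the length classes. The 66 protein-coding genes higher with the smaller SE had a median exon length of 1816.5 bases and the 35 lower 4664, against 4307.5 for all. The lists described above share these properties: the ribosomal protein genes, with a median exon length of 1684 bases, and the acute phase genes, with 2342, are short and highly expressed, while the zinc finger genes have 4937 and the insulin signalling genes 7189. The part of level and length in the list medians was not tested.

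**Figure D5:**
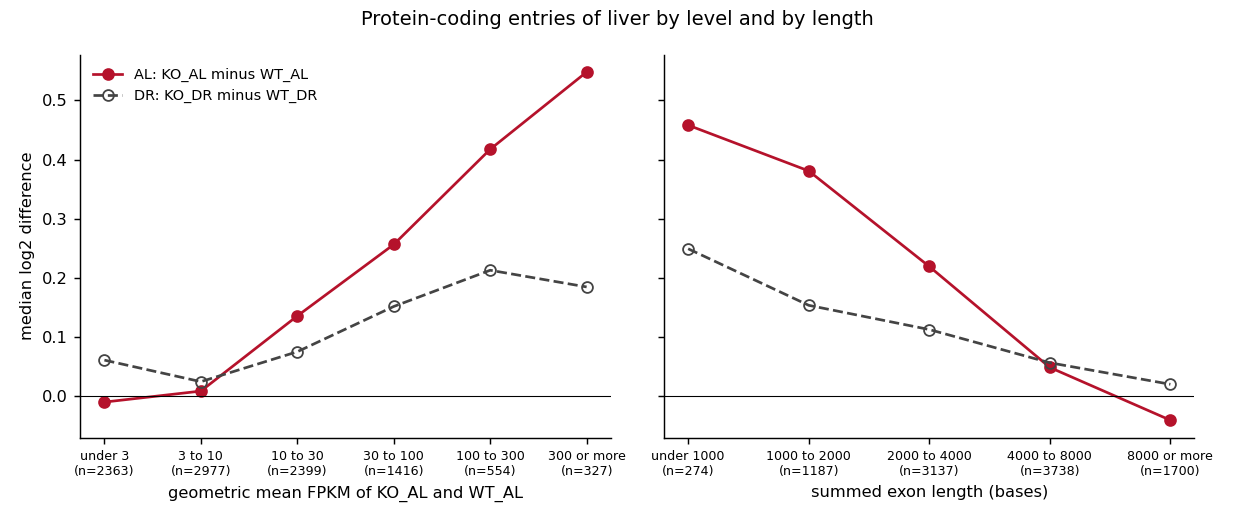
Points give the median log2 difference of protein-coding entries by class of geometric mean FPKM (left) and of summed exon length in bases (right), filled for KO_AL minus WT_AL and open for KO_DR minus WT_DR, with the number of genes under each class. Under AL the median is -0.01 in the lowest level class and 0.55 in the highest, and it is 0.46 for the shortest genes and -0.04 for the longest.

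The 4 liver groups also differed in how often each was the highest or the lowest. Over all tested entries WT_AL was the lowest group in 36.2% and the highest in 24.0%, and KO_AL was the lowest in 16.2% and the highest in 31.3%. WT_AL was the lowest group for C8b, Bcl6 and Rps16, and the highest for Serpinb1a, Zbtb38 and Zbtb18. These genes were named for their difference between KO_AL and WT_AL, so an extreme place of WT_AL is partly fixed by that choice. WT_AL also held only 2 libraries.

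KO_DR and WT_DR share no library with the AL groups and give a separate genotype comparison under another diet. The entries looked up were chosen for their difference under AL, so a smaller median under DR is partly fixed by that choice. Of the 28 up-regulated entries 26 could be tested there, and 14 were higher in KO_DR as well, where 57.4% of all tested entries were higher. Their median was 2.69 under AL and 0.12 under DR, and 3 were up-regulated and 2 down-regulated under DR, where 0.184% and 0.103% of all 13555 tested entries were. Of the 15 down-regulated entries 14 could be tested, and 8 were lower in KO_DR, with medians of -2.68 and -0.24, and 1 was down-regulated and 2 up-regulated under DR. Among the protein-coding genes called with the smaller SE, 48 of 65 and 20 of 31 kept their direction under DR. Of the 65 and 31, only 0 and 1 passed the FDR of 10% in the same direction there, and 0 and 0 in the opposite one. Their medians were 1.49 and -1.45 under AL and 0.44 and -0.22 under DR.

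The difference between the diets was itself tested for 12913 entries, and 13 passed (0.101%), of which 2 are protein-coding, Igfbp1 and Sik1. Sik1 was at 3.89 FPKM in WT_DR and 7.59 in KO_DR, so its genotype difference was 0.96 (SE 0.41) under DR and -1.65 under AL, and the difference of the 2 was 2.61 (SE 0.67). With the smaller SE 119 entries passed (0.922%). Among the genes named above these include Cdkn1a (-2.97, SE 0.96), Gadd45b (-3.50, SE 1.04), Fgf21 (-2.47, SE 0.85), C8b (-2.62, SE 0.87), Egr1 (-3.08, SE 0.89) and Nfil3 (-2.14, SE 0.74) in the negative direction. In the positive direction they include Zbtb38 (3.31, SE 1.03), Per3 (3.28, SE 1.21), Thrsp (2.44, SE 1.07) and Cd36 (1.73, SE 0.69). Sult2a7 (1.88, SE 0.92) did not pass with either SE. Most named genes were chosen by their difference under AL, which partly fixes the sign of the difference between the diets.

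In the other tissues the same genotype comparison was looked up for the liver genes. Of the 28 up-regulated entries, 17 could be tested in skeletal muscle, 13 in brain and 13 in WAT, and 13, 10 and 10 were higher there, with 1, 5 and 1 up-regulated. Of all entries tested in these tissues, 0.454%, 0.17% and 1.04% were up-regulated and 0.227%, 0.0328% and 0.245% down-regulated. Of the 15 down-regulated entries, 10, 7 and 12 could be tested, and 4, 2 and 5 were lower, with 0 down-regulated at an FDR of 10% in any of the 3 tissues by the same Wald test. Igfbp1 was under 1 FPKM in both groups of each other tissue. Thrsp, lower in KO_AL liver, rose from 15.4 to 66.2 FPKM in skeletal muscle and from 152 to 523 in WAT, and the difference between the tissues passed the test for both. Elovl6 rose from 3.44 to 58.9 in WAT. Cdkn1a was higher in skeletal muscle as well, at 16.7 and 54.1, where it was up-regulated.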

How the data were processed

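Liver RNA of 4 groups of female mice was compared, grouped by their labels. The authors trimmed reads with cutadapt 1.5, mapped them to GRCm38, ran Cuffdiff 2.2.1 with geometric normalisation and a dispersion per condition, and deposited FPKM values, pooled per group, with 95% intervals. No counts were used here, and the depth per library is unknown.

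The SD was taken as the distance from the FPKM to its upper bound, divided by 2, and the SE of a log2 ratio came from the delta method with a normal reference. The test assumes errors that are normal on the log scale. On simulated data with capped SDs it recovered most planted differences under that assumption. It made many false calls when errors were normal on the FPKM scale. The deposited intervals were symmetric about the FPKM, to within 0.0007% of it where the lower bound was above 0. Which scale the errors follow was not tested. Biotypes and exon lengths were those of the GENCODE annotation held here, matched by name for 12388 of 13003 tested single-gene entries, and promoters those of RefSeq. Python 3.11.15, pandas 2.3.3, scipy 1.17.1 and statsmodels 0.14.6 were used.

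Members and 55 gene lists were chosen with earlier results of these data known. Named genes were Irs1, up to 15 single-gene entries per direction with the largest log2 difference at an FDR of 10% and at least 1 FPKM in both groups, up to 4 genes per list with the smallest p (up to 2 by level where none was under 0.05) and the 5 entries of highest FPKM. Ntrk2, Sik1, Igf1, Insr, G6pc, Foxo1, Cpt1a, Cyp4a10, Fasn, Dbp, Tef, Egr1, Osgin1, Aqp8, Upf1, Leap2, Avpr1a, Camk2b, Pim3, Myl1, Pvalb, Ngp, Alox5 and Pglyrp1 were added with their values in view. A few genes that this rule names are not reported here. The effects of the alternatives tried are given in the closing section.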

Additional observations from a re-analysis of the deposited data

Results flagged for a closer look

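The genotype difference in DR-fed mice minus that in AL-fed mice passed its test for 7 named entries in liver. The value was -3.78 on the log2 scale for Igfbp1 and 2.61 for Sik1. For the short RNAs it was -4.19 (Snord82), -5.41 (n-R5s193), -1.45 (n-R5s194) and -1.69 (mt-Th), and for the pseudogene Mup-ps5 it was 2.50.

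The difference between KO_AL and WT_AL in liver less that in another tissue passed the same kind of test for 5 entries. For Thrsp it was -3.76 against skeletal muscle (SE 0.72) and -3.45 against WAT (SE 0.74). For Elovl6 it was -5.18 against WAT (SE 0.71), where the gene was at 7.62 and 3.60 FPKM in liver. Slc39a4, a zinc importer, was higher in KO_AL in both tissues, at 17.8 and 48.6 FPKM in liver and 0.607 and 52.5 in WAT, with a difference of -4.99. For Ighv1-53 it was -6.0 against skeletal muscle and -4.09 against WAT, and for mt-Th -0.40 against brain. The cause was not tested for any of them. Most named entries were chosen by their difference between KO_AL and WT_AL in liver. That choice partly fixes the sign of the differences between diets and between tissues.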

How the results depend on the processing

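The counts depended on the SE and on the reference distribution. With the smaller SE there were 135 higher and 75 lower entries in place of 28 and 15, 358 in place of 39 between KO_DR and WT_DR, and 119 in place of 13 for the difference between the diets, and entries called alike in liver and skeletal muscle, brain and WAT numbered 31, 19 and 10 in place of 1, 5 and 1. With a t distribution in the Wald test they were 4 higher and 0 lower (38 and 20 at an unadjusted p under 0.05), 4 between KO_DR and WT_DR, 4 for the difference between the diets, and 0, 0 and 0 shared with skeletal muscle, brain and WAT (4, 5 and 2 at an unadjusted p). Intervals that do not overlap gave 60 higher, 76 between KO_DR and WT_DR, and 6 and 2 shared with skeletal muscle and WAT. Restricted to protein-coding entries, an alternative added after seeing the data, the counts were 1 higher and 3 lower, and 52 and 31 with the smaller SE. The entries shared with WAT were 3 with a pseudocount of 0.1 and 4 with one of 1, and those shared with skeletal muscle were 2 with a pseudocount of 1 and 2 from an FPKM of 5. With a minimum of 2-fold, 0 were shared with skeletal muscle and 0 with WAT (35 and 12 at an unadjusted p and any size), and without joined entries 0 were shared with skeletal muscle and 3 with brain. Liver counts of higher and lower entries stayed within 1.5 times of the reported ones under an FDR of 5%, both pseudocounts, no filter, an FPKM of 5, a minimum of 2-fold, centring, and without joined entries. Centring on the median turned the sign of P4hb (-0.15), H2-Eb1 (-0.16) and Cpt1a (-0.062). Of the named genes, 26 no longer passed with a t distribution and 62 more passed with the smaller SE. No paired analysis was possible because the table holds 1 pooled column per group, and for the same reason no library could be left out. In all, 2 wild type libraries and unknown depth limit the precision.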

Other observations

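Some other genes were higher in the group labelled KO_AL in both diets' comparisons and were chosen after their values were seen. Camk2b, a calcium and calmodulin-dependent kinase subunit, was at 0.970 FPKM in WT_AL and 8.71 in KO_AL (log2 difference 3.17, SE 1.22) and at 1.25 in WT_DR and 6.21 in KO_DR (2.31, SE 0.73). Pim3, a serine/threonine kinase, was at 62.0 and 135 under AL and 41.5 and 96.7 under DR. Fabp4, a fatty acid binding protein of adipocytes and macrophages, was at 1.22 and 4.63 under AL and 2.63 and 10.5 under DR. None of the 3 passed the FDR of 10% in either diet, and Camk2b and Pim3 passed under AL with the smaller SE.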
